A study of Homo sapiens with 12 samples.

Results

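The genes described here encode interleukin-6-type cytokines, their receptor chains and their signal transducer and feedback inhibitor. They are 10 genes chosen by symbol: the ligands IL6, IL11, LIF and CLCF1, the receptor chains IL6R, IL6ST, LIFR and OSMR, the transcription factor STAT3 and the inhibitor SOCS3. Each of 9 had 1 probe set annotated with its symbol alone, out of 18417 genes with such a probe set, and CLCF1 was not analysed here. The choice between probe sets by highest mean was therefore never needed. The group was put together with the estradiol changes of LIF and IL6 in cells with non-targeting siRNA already known, so the calls in that comparison are given only as a description, and nothing is read from them.

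The study ran 12 Affymetrix Human Gene 1.0 ST arrays, all with RNA of U2OS-ER-alpha cells, a single human osteosarcoma line that carries estrogen receptor alpha. All cells received 50 nM of an siRNA pool and were then kept in medium with charcoal-stripped serum. The 4 groups of 3 biological replicates were cells with siRNA against NCOA1, the gene of the coactivator SRC-1, under 17-B-estradiol, the same siRNA under ethanol vehicle, non-targeting control siRNA under 17-B-estradiol, and non-targeting control siRNA under ethanol vehicle, each with 3 h of hormone or vehicle. The estradiol dose is not given in the sources used here. In bulk RNA of this kind, fewer cells of a type and less RNA per cell cannot be told apart.

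Interleukin-6-type cytokines share the receptor chain gp130, encoded by IL6ST. IL-6 and IL-11 bring gp130 together through their own receptors, encoded by IL6R and IL11RA, whereas LIF pairs gp130 with LIFR and oncostatin M pairs it with OSMR or LIFR. The receptors activate JAK kinases, which phosphorylate STAT3, and STAT3 switches on SOCS3, which shuts the receptor off again. In bone these cytokines act on osteoblasts and on the formation of bone-resorbing osteoclasts, and estrogen is known to restrain IL-6 production by bone cells.

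Values are log2 expression per probe set as the authors deposited them. The array medians of the tested probe sets lay between 6.855 and 6.921, and the lower quartiles between 5.17 and 5.24, below every value of the 9 genes. IL6 averaged 6.62 log2 over the 12 arrays, below these medians. The lower quartile is no detection limit, as signal over background was not measured. NCOA1 transcripts averaged 6.86 ± 0.07 log2 with SRC-1 siRNA and estradiol and 5.86 ± 0.29 with SRC-1 siRNA and vehicle, against 9.08 ± 0.07 with non-targeting siRNA and estradiol and 8.79 ± 0.06 with non-targeting siRNA and vehicle (SD, n = 3 each). ESR1 lay between 12 and 12.19 log2 on the 12 arrays. Of 8 measured osteoblast markers, IBSP was below the lower quartile on all 12 arrays and the other 7 were above it. Of 4 measured leukocyte markers, PTPRC was below the lower quartile on all 12 arrays, while CD14, CD3E and CD68 were above it on all, with means of 5.75, 5.67 and 10.61 log2. "Called" below means that limma gave both an unadjusted p below 0.01 and, after Benjamini-Hochberg adjustment over 29094 probe sets, an adjusted p below 0.05. Control probe sets were left out of the test. The p-values measure the spread among the labelled replicates.

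**Figure D1:**
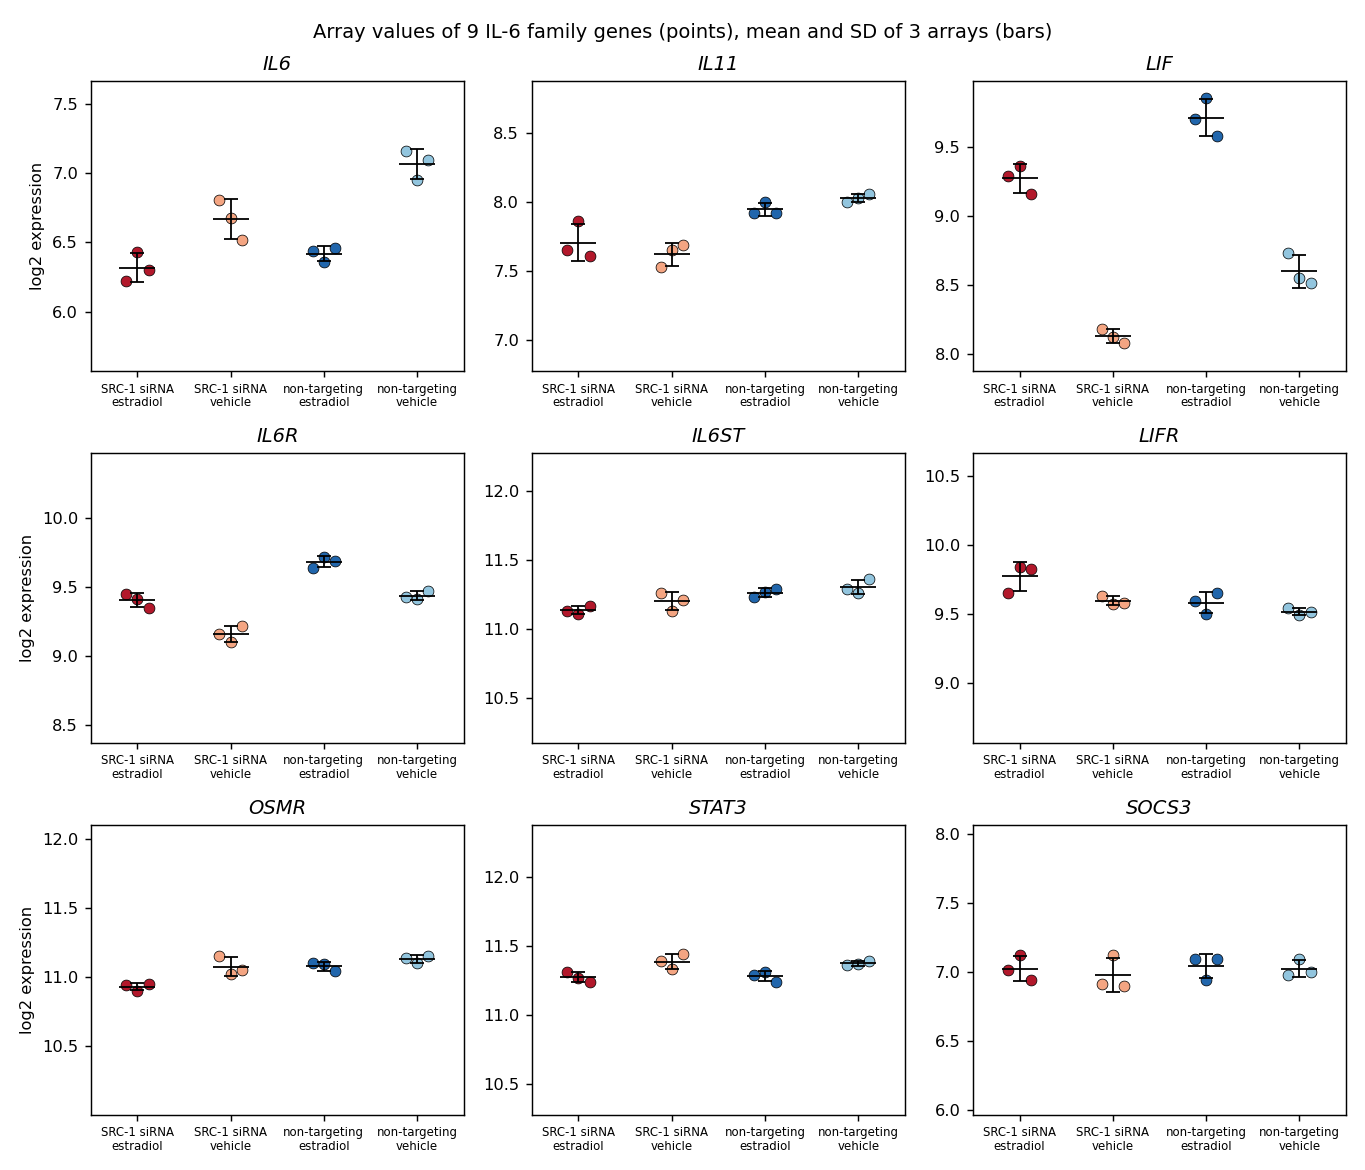
Log2 expression (vertical axes, each spanning the same number of log2 units) of 9 genes on 12 arrays, by siRNA and treatment (horizontal axes); points are arrays, bars the mean and SD of 3 arrays. LIF separates all 4 groups, from 8.08 to 8.18 with SRC-1 siRNA and vehicle up to 9.58 to 9.85 with non-targeting siRNA and estradiol, while SOCS3 stays between 6.9 and 7.12.

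Estradiol with non-targeting siRNA was the comparison that brought LIF and IL6 together. LIF, a cytokine that keeps embryonic stem cells undifferentiated in mice and acts on osteoblasts, measured 9.70, 9.85 and 9.58 log2 in the 3 estradiol arrays, against 8.73, 8.55 and 8.51 in the 3 vehicle arrays. All estradiol arrays lay above all vehicle arrays, and the difference was 1.11 ± 0.08 log2 (SE), or 2.17-fold. IL6, the cytokine that gives the family its name, measured 6.44, 6.36 and 6.46 log2 in the estradiol arrays, against 7.16, 6.95 and 7.10 in the vehicle arrays. Here every estradiol array lay below every vehicle array, with a difference of -0.65 ± 0.08 log2 (SE). IL6R, the ligand-binding receptor of IL-6, measured 9.64, 9.72 and 9.69 log2 in the estradiol arrays, against 9.43, 9.41 and 9.47 in the vehicle arrays. These groups did not overlap either, at a difference of 0.25 ± 0.05 log2 (SE).

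LIF and IL6R were called higher and IL6 lower in that comparison, 3 of 9 genes where 2.73% of all tested probe sets were called, 1.85% higher and 0.873% lower. The groups did not overlap for 6 of the 9, where 21.0% of all tested probe sets did not. The median difference of the 9 was -0.038 log2, against -0.011 over all tested probe sets. Differences of the other 6 genes lay between -0.10 log2 for STAT3 and 0.06 log2 for LIFR. These counts follow in part from how the genes were chosen. LIF and IL6 entered with their values here known, so the counts beside the shares are a description and no support.

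Estradiol with SRC-1 siRNA was measured on 6 other arrays. Results of all 12 arrays were known when the genes were chosen, so the p-values below are not independent evidence. LIF measured 9.29, 9.36 and 9.16 log2 in the estradiol arrays, against 8.18, 8.12 and 8.08 in the vehicle arrays. All 3 estradiol arrays were higher, by 1.14 ± 0.08 log2 (SE), or 2.21-fold (limma adjusted p = 8.67e-06). IL6 measured 6.22, 6.43 and 6.30 log2 in the estradiol arrays, against 6.81, 6.68 and 6.52 in the vehicle arrays. It fell in these cells, without overlap of the groups, by 0.35 ± 0.08 log2 (SE; limma adjusted p = 0.0252). IL6R measured 9.45, 9.41 and 9.35 log2 in the estradiol arrays, against 9.16, 9.10 and 9.22 in the vehicle arrays. It rose by 0.25 ± 0.05 log2 (SE; limma adjusted p = 0.00973), again with no overlap.

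The 3 called genes, 2 higher and 1 lower of 9, compare with 6.88% of all tested probe sets called in cells with SRC-1 siRNA, 4.49% higher and 2.39% lower. Groups did not overlap for 6 of 9, against 25.8% of all tested, and the median difference was 0.047 log2, against -0.016. The call of IL6 was lost without estradiol replicate 1 (adjusted p = 0.0961) or 3 (0.0742) or vehicle replicate 1 (0.0536) or 2 (0.0852) of the arrays with SRC-1 siRNA. The array mean over the control probe sets also moved with estradiol, lying at 0.094 to 0.178 log2 from its overall mean in the estradiol arrays with SRC-1 siRNA and at -0.159 to -0.024 in the vehicle arrays. With that mean as a covariate LIF kept its call at 1.17 log2, IL6 stood at -0.51 (limma adjusted p = 0.409) and IL6R at 0.19 (limma adjusted p = 0.633). As the covariate did not overlap between estradiol and vehicle arrays, this fit cannot tell it apart from estradiol, and a lost call is not read as a cause.

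**Figure D2:**
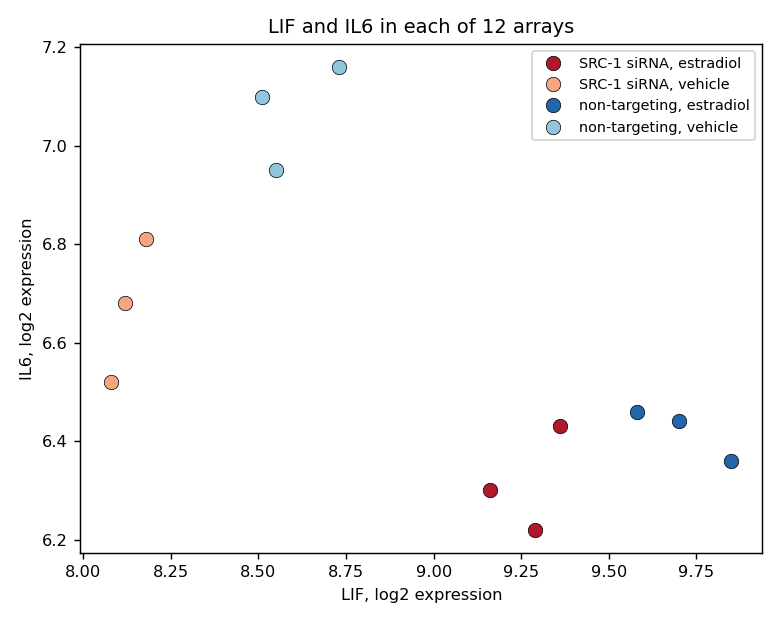
IL6 (vertical axis) against LIF (horizontal axis), both log2 expression, in each of 12 arrays coloured by siRNA and treatment. The 6 estradiol arrays lie at the lower right, with LIF at 9.16 or more and IL6 at 6.46 or less, and within each treatment the SRC-1 siRNA arrays lie at lower LIF.

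LIF and IL6 were set against each other within each comparison. The log2 difference of LIF minus that of IL6 was 1.5 for estradiol with SRC-1 siRNA and 1.76 for estradiol with non-targeting siRNA, while replicates of 1 group scattered by 0.13 log2 (pooled SD of LIF minus IL6). These values are a description, since the pair was named for its opposite movement. For SRC-1 siRNA the same quantity was -0.34 log2 under estradiol and -0.07 under vehicle, as both genes had negative differences there.

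The 4 group means of LIF stood in the order non-targeting siRNA with estradiol, SRC-1 siRNA with estradiol, non-targeting siRNA with vehicle, SRC-1 siRNA with vehicle, at 9.71, 9.27, 8.60 and 8.13 log2, and no neighbours in this order overlapped. For IL6 the order was non-targeting siRNA with vehicle, SRC-1 siRNA with vehicle, non-targeting siRNA with estradiol, SRC-1 siRNA with estradiol, at 7.07, 6.67, 6.42 and 6.32 log2. The 2 estradiol groups of IL6 overlapped and the other neighbours did not. IL6R was highest with non-targeting siRNA and estradiol and lowest with SRC-1 siRNA and vehicle, and its 2 middle groups overlapped.

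SRC-1 siRNA under vehicle compares the siRNA pools without hormone. With a single pool against NCOA1, effects of losing SRC-1 and other effects of that pool cannot be told apart. The cytokine genes LIF, IL11 and IL6 and the receptor gene IL6R were called lower, and no measured gene of the family was called higher. IL11, a cytokine that supports platelet and osteoclast formation, measured 7.53, 7.65 and 7.69 log2 with SRC-1 siRNA, against 8.0, 8.03 and 8.06 with non-targeting siRNA. The groups lay apart, and IL11 fell by 0.41 ± 0.07 log2 (SE; limma adjusted p = 0.0122). From the array values given above, LIF fell by 0.47 ± 0.08 log2 (limma adjusted p = 0.0171) and IL6 by 0.40 ± 0.08 (0.0419). IL6R fell by 0.28 ± 0.05 log2 (limma adjusted p = 0.0157). In each of these 4 genes every array with SRC-1 siRNA lay below every array with non-targeting siRNA. LIFR lay the other way, at 9.63, 9.57 and 9.58 log2 with SRC-1 siRNA, against 9.54, 9.49 and 9.51 with non-targeting siRNA. Its arrays did not overlap, and its difference of 0.08 log2 was not called (limma adjusted p = 0.639).

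The 4 called genes of 9 compare with 1.21% of all tested probe sets called under vehicle, 0.265% higher and 0.945% lower. Results of all 12 arrays were known when the genes were chosen, so this count is a description and no support. Groups did not overlap for 6 of the 9, against 18.4% of all tested, and the median difference was -0.101 log2, against 0.001. The count was 1 without SRC-1 siRNA replicate 2 or non-targeting replicate 1 or 3, and 2 without SRC-1 siRNA replicate 3, all under vehicle. IL6 was called in 4 of the 12 fits that left out 1 array, with adjusted p up to 0.167 in the other fits, and it also lost its call without SRC-1 siRNA replicate 3 or any of the non-targeting replicates 1, 2 and 3 under estradiol. IL6R lost its call without SRC-1 siRNA replicate 1 too (0.0512). The log2 differences without 1 array were -0.52 to -0.40 for LIF, -0.44 to -0.36 for IL11, -0.47 to -0.32 for IL6 and -0.31 to -0.24 for IL6R. Each comparison of the siRNAs shares 3 arrays with each estradiol comparison, so their values stand side by side here and were not correlated. Of the 8 measured osteoblast markers, SPP1, the matrix protein osteopontin, and ALPL, the phosphatase of mineralizing cells, also fell, by 0.71 ± 0.07 and 0.23 ± 0.05 log2 (SE; limma adjusted p = 0.000541 and 0.031). Both were picked with their values in view, and their part in the cytokine result was not tested. None of the other osteoblast markers was called here. RUNX2, COL1A2 and IBSP had higher means with SRC-1 siRNA (7.40, 6.72 and 4.95 log2) than with non-targeting siRNA (7.24, 6.66 and 4.87). SP7, COL1A1 and SPARC had lower means. The 10 measured leukocyte, endothelial and epithelial markers had 0 limma calls in 50 tests, and 5 unadjusted p under 0.05.

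The table of RefSeq promoters used here (GRCh38.p14) held windows of 8 of the 10 genes, all but LIF and CLCF1, with 250 bases before the gene's start and the first 50 transcribed bases. The windows of IL6, IL11 and IL6R are printed because these genes, like LIF, fell with SRC-1 siRNA under vehicle. Both strands were searched for the estrogen response element half-site GGTCA and the full palindromic element, AP-1 (TGANTCA), NF-kB, C/EBP (TTNNGNAA), CRE (TGACGTCA) and the STAT site called GAS (TTCNNNGAA). The half-site is part of the palindromic element. Capitals mark the matches, which in IL6 are C/EBP and then NF-kB, in IL11 the half-site and then AP-1, and in IL6R a pair of C/EBP matches and then AP-1. IL6 lies at chr7:22726950-22727249 on the plus strand, IL11 at chr19:55370414-55370713 on the minus strand and IL6R at chr1:154405093-154405392 on the plus strand.
IL6: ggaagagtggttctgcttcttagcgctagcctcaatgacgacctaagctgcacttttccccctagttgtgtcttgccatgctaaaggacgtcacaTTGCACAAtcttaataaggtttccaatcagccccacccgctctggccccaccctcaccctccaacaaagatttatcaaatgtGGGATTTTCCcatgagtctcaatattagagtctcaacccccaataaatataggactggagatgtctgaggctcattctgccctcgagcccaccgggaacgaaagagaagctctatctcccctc
IL11: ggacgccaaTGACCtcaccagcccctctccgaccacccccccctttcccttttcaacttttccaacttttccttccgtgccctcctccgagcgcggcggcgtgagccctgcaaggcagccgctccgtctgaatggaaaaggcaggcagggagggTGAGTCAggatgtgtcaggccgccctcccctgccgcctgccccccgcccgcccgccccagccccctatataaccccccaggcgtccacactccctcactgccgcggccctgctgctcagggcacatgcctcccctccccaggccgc
IL6R: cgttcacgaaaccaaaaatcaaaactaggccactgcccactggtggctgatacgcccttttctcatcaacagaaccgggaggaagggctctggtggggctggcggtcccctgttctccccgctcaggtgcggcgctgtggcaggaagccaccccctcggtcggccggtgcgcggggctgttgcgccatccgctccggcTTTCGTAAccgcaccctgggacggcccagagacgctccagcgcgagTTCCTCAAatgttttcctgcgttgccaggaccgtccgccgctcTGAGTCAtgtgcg

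A match is only a match of letters. The half-site occurs in 37.3% of 34796 distinct windows of this length, C/EBP in 36.9%, NF-kB in 11.3%, AP-1 in 7.73%, GAS in 7.67%, CRE in 1.84% and the palindromic estrogen response element in 0.0575%. Among the 11 windows of the family's 8 genes, 5 held the half-site, 6 C/EBP, 3 AP-1, 2 NF-kB, 2 GAS and 0 the palindromic element or CRE. The NF-kB match of IL6 began 73 bases before the gene's start and its C/EBP match 155 bases before it. The AP-1 match of IL11 began 96 bases before the start, while that of IL6R lay within the first 50 transcribed bases. The third AP-1 match was in the window of OSMR, which was not called in any comparison.

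SRC-1 siRNA under estradiol compares the siRNA pools with hormone present, but at a smaller fall of NCOA1. Its means were 6.86 against 9.08 log2 under estradiol and 5.86 against 8.79 under vehicle. The part of this unequal knockdown in the differences between the 2 siRNA comparisons was not tested. LIF fell by 0.44 ± 0.08 log2 (SE; limma adjusted p = 0.0207) and IL6R by 0.28 ± 0.05 (0.0137), with no overlap of the groups for either. IL11 measured 7.65, 7.86 and 7.61 log2 with SRC-1 siRNA, against 7.92, 8.0 and 7.92 with non-targeting siRNA. Its arrays did not overlap, and its difference of -0.24 ± 0.07 log2 (SE) was not called (limma adjusted p = 0.107). IL6 overlapped between the siRNAs under estradiol, at a difference of -0.11 ± 0.08 log2 (SE; limma adjusted p = 0.579).

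The 2 called of 9 compare with 1.80% of all tested probe sets called under estradiol, 0.732% higher and 1.07% lower, and the 5 without overlap with 22.3%. These counts too are a description and no support, as the results were known when the genes were chosen. The median difference was -0.124 log2, against -0.006 over all tested probe sets. LIF lost its call without SRC-1 siRNA replicate 1 (adjusted p = 0.0656) or 3 (0.088) or non-targeting replicate 1 (0.0678) or 2 (0.0811), and IL6R without SRC-1 siRNA replicate 3 (0.062) or non-targeting replicate 2 (0.0669) or 3 (0.052), all under estradiol. SPP1 and ALPL fell here too, by 0.87 ± 0.07 and 0.43 ± 0.05 log2 (SE; limma adjusted p = 8.21e-05 and 0.00089). No other osteoblast marker was called. RUNX2 (7.16 against 7.04 log2), SP7, SPARC and IBSP had higher means with SRC-1 siRNA, COL1A2 a lower one, and COL1A1 stood at 9.09 with either siRNA.

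**Figure D3:**
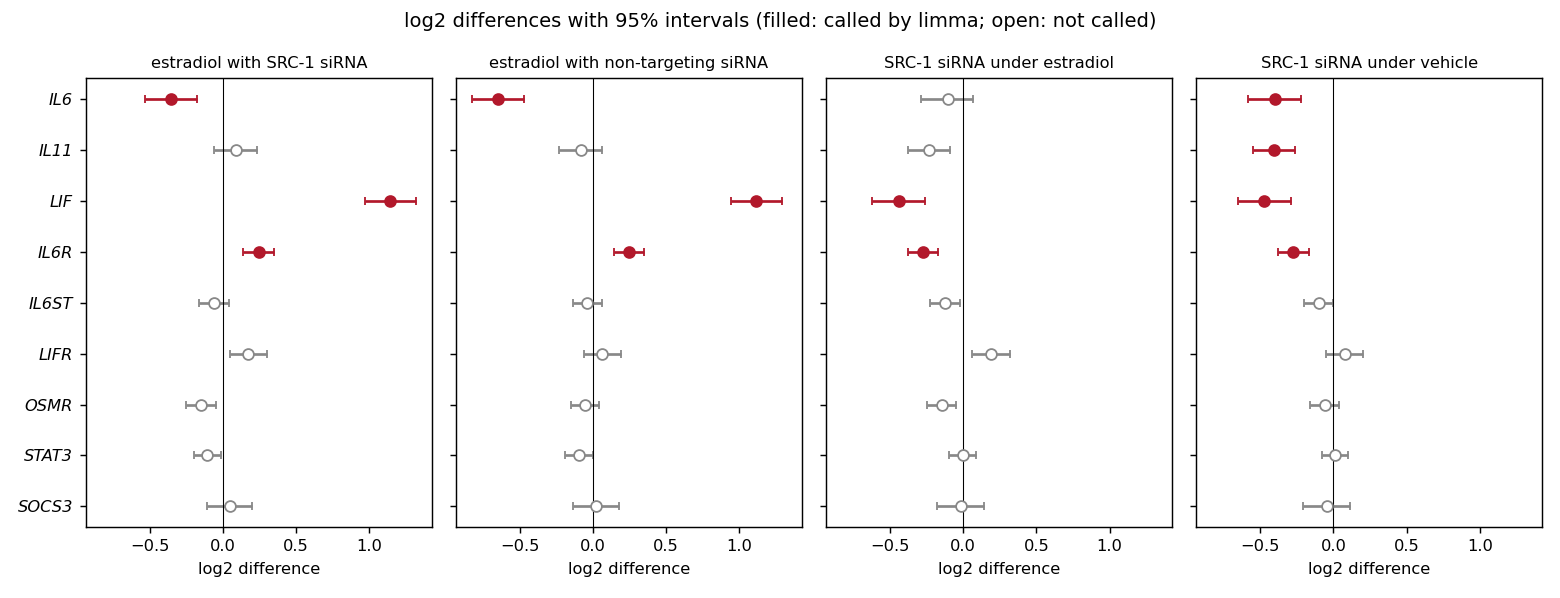
Log2 differences (horizontal axes) of 9 genes (rows) in 4 comparisons, each as treated minus its own control, with 95% intervals from limma; filled points were called and open points were not. LIF and IL6R are higher with estradiol and lower with SRC-1 siRNA in both settings, IL6 is called lower in 3 of the 4 comparisons, and the lower 5 rows hold no called gene.

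Whether SRC-1 siRNA changed the estradiol response was tested in limma as an interaction, the estradiol difference with SRC-1 siRNA minus that with non-targeting siRNA. For LIF this was 0.03 log2 (95% interval -0.22 to 0.28) and for IL6R 0.00 log2 (-0.15 to 0.15). For IL6 it was 0.29 (0.04 to 0.55), that is, the value with SRC-1 siRNA was less negative, and for IL11 it was 0.17 (-0.03 to 0.38). The limma adjusted p was 0.648 for IL6, and 0 of 9 genes were called, as were 0% of all tested probe sets. At an unadjusted p under 0.05 it was 1 of 9, IL6, whose value was known when the genes were chosen, against 7.22% of all tested probe sets. With SRC-1 siRNA, NCOA1 averaged 6.86 log2 under estradiol and 5.86 under vehicle, and the part of this in the interaction was not tested.

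The remaining receptor and signalling genes were not called in any 2-group comparison. Their 20 log2 differences lay between -0.15 and 0.19, and 7 had an unadjusted p under 0.05 in limma. Of all tested probe sets, 23.2% passed that level for estradiol with SRC-1 siRNA, 13.3% for estradiol with non-targeting siRNA, 15.8% for SRC-1 siRNA under estradiol and 12.7% for SRC-1 siRNA under vehicle. IL6ST, which encodes gp130, ranged from 11.11 to 11.17 log2 with SRC-1 siRNA and estradiol, from 11.13 to 11.26 with SRC-1 siRNA and vehicle, from 11.23 to 11.29 with non-targeting siRNA and estradiol and from 11.26 to 11.36 with non-targeting siRNA and vehicle. Its arrays with SRC-1 siRNA lay below those with non-targeting siRNA under each treatment, at -0.12 ± 0.05 log2 (SE; limma adjusted p = 0.223) under estradiol and -0.10 ± 0.05 (0.399) under vehicle.

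LIFR, the LIF receptor chain, measured 9.65, 9.84 and 9.82 log2 with SRC-1 siRNA and estradiol, against 9.63, 9.57 and 9.58 with SRC-1 siRNA and vehicle. The arrays did not overlap, at 0.17 ± 0.06 log2 (SE; limma adjusted p = 0.0985), and without estradiol replicate 1 the gene was called at 0.23 log2 (0.0422). OSMR, the oncostatin M receptor chain, measured 10.94, 10.90 and 10.95 log2 with SRC-1 siRNA and estradiol, against 11.15, 11.02 and 11.05 with SRC-1 siRNA and vehicle. These did not overlap either, at -0.15 ± 0.05 log2 (SE; limma adjusted p = 0.0789). Its mean was 11.08 ± 0.03 log2 with non-targeting siRNA and estradiol and 11.13 ± 0.03 with non-targeting siRNA and vehicle (SD, n = 3 each).

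STAT3, which carries the signal to the nucleus, had a difference of -0.11 ± 0.04 log2 (SE) for estradiol with SRC-1 siRNA (limma adjusted p = 0.158), and its estradiol arrays lay below its vehicle arrays with either siRNA. SOCS3, the feedback inhibitor that STAT3 induces, overlapped in all 4 comparisons. Its group means were 7.02 ± 0.09 log2 with SRC-1 siRNA and estradiol, 6.98 ± 0.12 with SRC-1 siRNA and vehicle, 7.04 ± 0.09 with non-targeting siRNA and estradiol and 7.02 ± 0.06 with non-targeting siRNA and vehicle (SD, n = 3 each). The 95% interval of its estradiol difference was -0.11 to 0.20 log2 with SRC-1 siRNA and -0.14 to 0.18 with non-targeting siRNA.

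Beyond the 10 genes, 57 of 60 other genes of the pathway were measured: further ligands, receptor chains and sheddases, kinases and STATs, feedback genes, STAT3 targets, and regulators of cytokine transcription and mRNA stability. Estradiol with SRC-1 siRNA changed 13 of them, 8 higher and 5 lower, and estradiol with non-targeting siRNA changed 11, 5 higher and 6 lower, where 6.88% and 2.73% of all tested probe sets were called. Of these, 9 were called in both, which is 69.2% of the 13 and 81.8% of the 11. The same share was not computed over all tested probe sets, so nothing particular to the pathway is read from it. The median difference of the 57 was -0.017 log2 with SRC-1 siRNA, against -0.016 over all tested, and -0.009 with non-targeting siRNA, against -0.011.

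ZFP36, an RNA-binding protein that speeds the decay of cytokine transcripts, IL6 among them, measured 8.31, 8.33 and 8.28 log2 with SRC-1 siRNA and estradiol, against 7.27, 7.27 and 7.40 with SRC-1 siRNA and vehicle. It rose by 0.99 ± 0.07 log2 (SE; limma adjusted p = 7.46e-06) in those cells and by 1.01 ± 0.07 with non-targeting siRNA. Its relative ZFP36L1 fell by 0.54 ± 0.05 log2 (SE) with SRC-1 siRNA and by 0.48 ± 0.05 with non-targeting siRNA. NFKBIZ, a nuclear cofactor of NF-kB that promotes IL6 transcription, fell by 0.47 ± 0.06 and 0.42 ± 0.06 log2 (SE) in these settings. Whether any of these regulators, or CEBPB below, had a part in the IL6 differences was not tested. Of the 13 regulators, 2 rose and 4 fell with SRC-1 siRNA, where 4.49% and 2.39% of all tested probe sets did. With non-targeting siRNA 1 rose and 3 fell, where 1.85% and 0.873% did. Their median difference was -0.090 log2 with SRC-1 siRNA and -0.103 with non-targeting siRNA, against -0.016 and -0.011 over all tested.

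Of the 21 STAT3 target genes, estradiol calls were 5 up and 1 down with SRC-1 siRNA, against 4.49% and 2.39% of all tested probe sets. With non-targeting siRNA they were 4 up and 1 down, against 1.85% and 0.873%. The median difference of the 21 was -0.014 log2 with SRC-1 siRNA, where 9 were positive. It was 0.042 log2 with non-targeting siRNA, where 14 were positive. Over all tested probe sets the medians were -0.016 and -0.011. The genes were chosen with earlier results known, so these counts are a description and no support. PIM1, a kinase of cell survival, measured 9.39, 9.50 and 9.24 log2 with SRC-1 siRNA and estradiol, against 8.63, 8.51 and 8.55 with SRC-1 siRNA and vehicle. It rose by 0.82 ± 0.06 log2 (SE) there and by 0.78 ± 0.06 with non-targeting siRNA. CEBPB, a transcription factor of the acute-phase response that also binds the IL6 promoter, rose by 0.49 ± 0.04 and 0.59 ± 0.04 log2 (SE) with SRC-1 and non-targeting siRNA. BCL3, an atypical inhibitor of NF-kB, rose by 0.34 ± 0.06 and 0.47 ± 0.06, and VEGFA, the angiogenic growth factor, by 0.31 ± 0.04 and 0.35 ± 0.04. MYC, the growth-promoting transcription factor, fell by 0.47 ± 0.05 and 0.38 ± 0.05. These 5 genes and ZFP36, ZFP36L1 and NFKBIZ were called for estradiol with either siRNA in each of the 12 fits that left out 1 array. With the mean of the control probe sets as a covariate, all 8 were called with non-targeting siRNA, and ZFP36 alone of the 57 pathway genes with SRC-1 siRNA. That mean moved with estradiol, and this fit cannot tell them apart. Many of the STAT3 target genes are also induced by signals other than STAT3, as background. The 5 further ligands and subunits of the gp130 group differed by -0.15 to 0.07 log2 with SRC-1 siRNA and by -0.16 to 0.11 with non-targeting siRNA, with 0 limma calls and 0 unadjusted p under 0.05.

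SRC-1 siRNA changed fewer of the 57, 4 under estradiol and 2 under vehicle, where 1.80% and 1.21% of all tested probe sets were called. ICAM1, an adhesion receptor for leukocytes, measured 8.68, 8.69 and 8.58 log2 with SRC-1 siRNA and estradiol and 8.40, 8.41 and 8.51 with SRC-1 siRNA and vehicle, against 9.10, 9.25 and 9.12 with non-targeting siRNA and estradiol and 8.98, 8.94 and 8.91 with non-targeting siRNA and vehicle. It fell by 0.50 ± 0.05 log2 (SE; limma adjusted p = 0.00106) under estradiol and by 0.51 ± 0.05 (0.00117) under vehicle, and in all 12 fits without 1 array. CNTFR, the receptor chain that binds CLCF1 and ciliary neurotrophic factor, fell by 0.28 ± 0.06 log2 (SE; 0.0495) under estradiol and by 0.31 ± 0.06 (0.0357) under vehicle. The call of CNTFR was kept in 1 of the 12 fits without 1 array under estradiol and in 5 of 12 under vehicle. IL31RA, the receptor chain that pairs with OSMR to bind IL-31, rose by 0.24 ± 0.05 log2 (SE; limma adjusted p = 0.0347) under estradiol, and JUN, an AP-1 subunit, by 0.23 ± 0.05 (0.041), kept in 5 and 1 of the 12 fits.

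**Figure D4:**
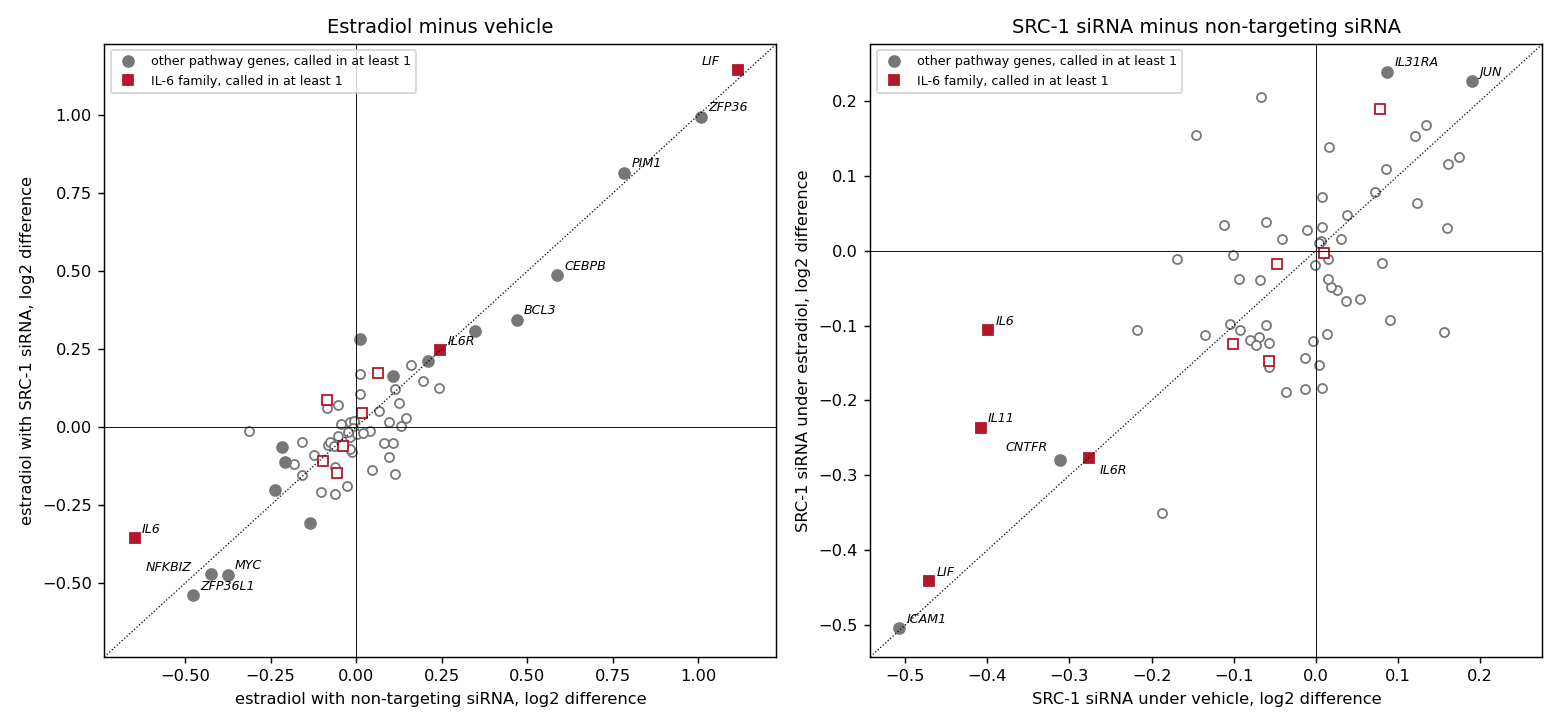
Log2 differences of the 9 family genes (squares) and 57 other pathway genes (circles) for estradiol minus vehicle (left panel, SRC-1 siRNA on the vertical and non-targeting siRNA on the horizontal axis) and for SRC-1 minus non-targeting siRNA (right panel, estradiol on the vertical and vehicle on the horizontal axis); the axes of a panel share no arrays, filled symbols were called in at least 1 of the 2 comparisons, and the dotted line marks equal values. LIF and ZFP36 lie at the upper right on the left, and LIF, ICAM1, IL6R, CNTFR and IL11 at the lower left on the right.

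The genes whose array pattern was most like that of IL6 were sought among 19451 other probe sets with 1 symbol, by the root mean square difference of centred log2 values over the 12 arrays. They were ARHGAP31 at 0.089 log2, JAG1 at 0.109, EDN1 at 0.119, ODAPH at 0.13 and SEMA7A at 0.134, where the spread of IL6 itself was 0.303 log2. JAG1, a Notch ligand, differed by -0.29 log2 for estradiol with SRC-1 siRNA and by -0.55 with non-targeting siRNA, against -0.35 and -0.65 for IL6. EDN1, the vasoconstrictor endothelin-1, differed by -0.39 and -0.54 log2 in these comparisons. Most like LIF were SLCO2A1 at 0.133 log2, HMOX1 at 0.157, TMT1B at 0.181, SLITRK4 at 0.183 and PLPP3 at 0.19, where the spread of LIF was 0.615 log2. SLCO2A1, a prostaglandin transporter, differed by 1.01 log2 for estradiol with SRC-1 siRNA and by 0.89 with non-targeting siRNA, and by -0.36 and -0.48 for SRC-1 siRNA under estradiol and vehicle. HMOX1, the heme-degrading oxygenase, differed by 1.07 and 0.86 log2 for estradiol and by -0.23 and -0.44 for SRC-1 siRNA. These likenesses are descriptions with no test.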

How the data were processed

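The authors processed the CEL files of 12 arrays with the affy package and tested with limma, per the series' design text and the submitters' processing notes. Versions, background correction, normalization and summarization are not given in the sources used here. What they deposited is log2 expression for each probe set, taken here without change. The table holds 33297 probe sets. Those numbered below 7896740, the lowest identifier in the annotation, were taken as controls from their numbers, and these 4203 stayed out of all tests. Symbols come from the platform annotation: 19460 of the 29094 tested probe sets carry 1 symbol, 1754 several and 7880 none. All 12 arrays entered a single limma 3.58.1 model in R 4.3.3 with 4 group means (lmFit, eBayes; 3.15 prior and 8 residual degrees of freedom). Tests are two-sided, with Benjamini-Hochberg adjustment over all 29094, and the fit was tested on simulated data. Arrays have no read depth: their number limits the precision, with a median standard error of 0.071 log2.

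The 10 genes, the 60 pathway genes and the 20 cell type markers were chosen with earlier results of these data known. Named are the 10 genes, NCOA1 and ESR1, up to 6 called pathway genes with the smallest p per comparison, and the 5 probe sets most like IL6 or LIF. CLCF1, CNTF and BGLAP were not analysed here. Same-numbered arrays of different groups had deviations correlated over 0.1 in 5 of 18 pairs (range -0.03 to 0.21). For arrays of other numbers it was 2 of 36 pairs (range -0.26 to 0.11). The main fit did not use the numbers as pairs, so any spread shared by same-numbered arrays was left in it. Alternatives were a replicate block, other scalings, filters, variances, weights, thresholds and probe set choices, a covariate and each array left out.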

Additional observations from a re-analysis of the deposited data

Results flagged for a closer look

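The probe sets left out as controls carried a signal that moved with estradiol. Their array mean was higher by 0.226 log2 in estradiol than in vehicle arrays with SRC-1 siRNA (0.135 ± 0.042 against -0.091 ± 0.067, SD, n = 3 each). With non-targeting siRNA it was higher by 0.109 log2 (0.032 ± 0.036 against -0.076 ± 0.043). Its part in the changes of the cytokine genes was examined only by using it as a covariate. It did not overlap between estradiol and vehicle arrays with either siRNA, so that fit cannot tell it apart from estradiol.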

How the results depend on the processing

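LIF was called for estradiol, with either siRNA, in every fit, at 1.10 to 1.20 log2 with SRC-1 siRNA and 1.05 to 1.18 with non-targeting siRNA when 1 array was left out. LIF was chosen with these changes known, so its calls describe the fits and are not independent evidence. No family gene was called with the opposite sign under any alternative, and the difference of the estradiol effects called 0 family and 0 pathway genes in limma under each. The cause of the following changes was not tested. Family genes called for estradiol with SRC-1 siRNA numbered 3, but 1 with only the compared arrays, with the covariate or with a fold change of at least 1.5, and 6 with a trended and robust variance; without 1 array they numbered 2 to 3, as they did with non-targeting siRNA. For SRC-1 siRNA under vehicle the 4 became 0 with only the compared arrays, an adjusted p under 0.01 or the fold threshold, and 1 to 4 without 1 array. Under estradiol the 2 became 0 with only the compared arrays, the covariate, an adjusted p under 0.01 or the fold threshold, 4 with the trended variance and 0 to 3 without 1 array. Pathway genes called for estradiol with SRC-1 siRNA numbered 13, but 1 with the covariate, 8 at an adjusted p under 0.01 and 2 with the fold threshold (9 to 14 without 1 array); with non-targeting siRNA the 11 became 3 with the fold threshold (8 to 10 without 1 array). For SRC-1 siRNA under vehicle the 2 became 1 with only the compared arrays or an adjusted p under 0.01, 0 with the fold threshold and 1 to 2 without 1 array. Under estradiol the 4 became 1 with only the compared arrays, median centring or an adjusted p under 0.01, 2 with the covariate, 8 without the lowest 40% of probe sets, 11 with the trended variance, 0 with the fold threshold and 1 to 3 without 1 array. LIF minus IL6 for estradiol with SRC-1 siRNA moved from 1.5 to 1.69 with the covariate (1.44 to 1.55 without 1 array) and with non-targeting siRNA was 1.66 to 1.85 without 1 array. With the replicate block, family genes called numbered 3 and 3 for estradiol with SRC-1 and non-targeting siRNA. They numbered 2 and 3 for SRC-1 siRNA under estradiol and vehicle. IL6 lost its call under vehicle (limma adjusted p = 0.0744). Under vehicle, deviations of SRC-1 and non-targeting siRNA arrays correlated at 0.17, 0.19 and -0.01 for replicate numbers 1, 2 and 3. Signal over background was not measured.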
